A study of Mus musculus with 48 samples.

Results

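A set of 9 secreted BMP antagonists was followed through the mouse hair cycle. They were chosen by gene symbol alone: Nog, Chrd, Chrdl1, Chrdl2, Grem1, Bmper, Fst, Fstl1 and Sostdc1 make up 9 of the 46983 genes listed in each of 2 expression tables in FPKM (fragments per kilobase of transcript and per fixed number of mapped fragments, a unit scaled for transcript length). All 9 symbols were found in both tables. RNA had been sequenced from whole skin microdissected from chin, ventral and dorsal domains of C57BL/6 mice. Each domain was sampled at the stages labelled competent telogen, early, mid and late anagen, catagen and refractory telogen, with 2 or 3 libraries in each of the 18 groups and 43 libraries in all. A second table held 2 libraries of telogen ear skin, 3 of the cartilage/muscle complex of the ear and the 2 dorsal competent telogen libraries again, so that 48 libraries were distinct. All groups were untreated, no transgene or deletion was given for any of them, and the ages of the mice were not given in the sources used here. Nothing said whether replicates came from separate mice, so that the p-values measure the spread between these samples, which may be technical.

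BMPs are secreted ligands that hold hair follicle stem cells quiescent during telogen, and their withdrawal is part of the entry into anagen. Secreted antagonists bind the ligands outside the cell and keep them from their receptors. Noggin, chordin and the chordin-like proteins trap BMPs directly, and Bmper, a relative of chordin, can hinder or help the ligand. Grem1 and Sostdc1 belong to a family with a cystine knot, and Sostdc1 also binds LRP co-receptors of the WNT pathway. Follistatin, encoded by Fst, binds activins most tightly and BMPs less so, and Fstl1 is a follistatin-like glycoprotein that binds BMP4.

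In GRCm38 coordinates with the GENCODE vM21 annotation, Nog lies at chr11:89300638-89302332 on the minus strand, Chrd at chr16:20733127-20742384 on the plus strand, Chrdl1 at chrX:143285674-143394262 on the minus strand and Chrdl2 at chr7:100006172-100034728 on the plus strand. Grem1 lies at chr2:113746164-113758646 (minus), Bmper at chr9:23223076-23485200 (plus), Fst at chr13:114452290-114458951 (minus), Fstl1 at chr16:37776873-37836514 (plus) and Sostdc1 at chr12:36314139-36318452 (plus). Chrd overlaps Thpo, and Fst overlaps Gm47040, each on the opposite strand. Whether the counting used strand is not given in the sources used here, so reads of these overlapping genes may not have been told apart. The promoters of 4 of the 9 members were found in the RefSeq promoter sequences of GRCm38.p6. The promoters of 3 are printed, each as the 250 bases before the start of the gene in the direction of transcription, because the 3 genes are those of the matched members whose levels were set farthest apart between the cartilage/muscle complex and dorsal skin. Capitals mark the match to a short list of motifs that each window held. In Chrd and Grem1 it is the SMAD GC element GGCGCC, the same on both strands, whose first letter stands 203 and 78 bases before the start. In Bmper it is the TCF/LEF core CTTTGA read on the other strand, 210 bases before the start.
Chrd (chr16:20732877-20733126, plus strand): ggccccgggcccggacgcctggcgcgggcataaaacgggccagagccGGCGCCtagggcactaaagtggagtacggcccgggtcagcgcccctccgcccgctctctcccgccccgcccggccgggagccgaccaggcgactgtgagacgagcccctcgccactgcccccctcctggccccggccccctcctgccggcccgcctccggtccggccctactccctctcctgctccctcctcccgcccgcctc
Grem1 (chr2:113758649-113758898, minus strand): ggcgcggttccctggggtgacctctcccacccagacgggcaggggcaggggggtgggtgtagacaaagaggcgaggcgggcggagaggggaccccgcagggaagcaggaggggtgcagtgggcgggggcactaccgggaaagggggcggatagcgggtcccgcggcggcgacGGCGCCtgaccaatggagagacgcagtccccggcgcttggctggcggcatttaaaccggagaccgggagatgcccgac
Bmper (chr9:23222826-23223075, plus strand): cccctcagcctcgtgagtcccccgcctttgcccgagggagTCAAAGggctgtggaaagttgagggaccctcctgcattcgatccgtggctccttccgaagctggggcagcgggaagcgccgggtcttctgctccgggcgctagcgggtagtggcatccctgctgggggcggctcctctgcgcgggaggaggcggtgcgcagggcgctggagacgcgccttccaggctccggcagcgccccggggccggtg
GC made up 78.0%, 72.0% and 71.6% of these windows, against a median of 52.4% over 32851 promoters of the same length. GGCGCC was found in 9.59% and CTTTGA in 13.8% of all these promoters on either strand, and the Chrd window also overlaps Thpo. The 2 motifs do not overlap each other. A TATA box (TATAAA), a SOX site (ACAATG) and an E-box (CAGCTG), held by 12.4%, 10.7% and 13% of all promoters, were not matched in the 3 windows. These matches are matches of letters and not sites of binding.

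Several libraries went against their labels, and groups are called by their labels below with that limit. The 2 libraries labelled chin late anagen and the 2 labelled dorsal competent telogen lay as close to each other as replicates: only 2 of 21257 genes (0.00941%) passed the test between these groups, with 387 at an unadjusted p under 0.05, whereas 667 to 10172 genes passed between domains labelled with one stage. Their mean absolute log2 distance was 0.19 to 0.211 across the groups, against 0.212 and 0.185 within them. Hoxb7, a Hox gene that marks position along the body and was chosen here after its values were seen, was at 0 to 0.77 FPKM in the 12 other chin libraries but at 7.25 and 8.41 FPKM in chin late anagen, within the 3.06 to 18.15 FPKM of the 29 ventral and dorsal libraries. In dorsal competent telogen it was at 9.09 and 9.41 FPKM, so that of the 2 groups only chin late anagen went against its domain label by this gene. None of the 8 members tested differed between the 2 groups, whose differences ran from −0.05 to 0.27 on the log2 scale. Tests that use either group are therefore marked, and for some the value without both is given. One of the 2 ventral catagen libraries carried a location label that names the ear. Its title and source name the ventral side, and Hoxb7 was at 7.19 and 10.37 FPKM in the 2 libraries against 0.09 and 0.22 FPKM in ear skin.

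Marker genes of the stages also stood apart from some labels. Over 8 genes of dividing cells, the mean of log2(FPKM + 1) was 4.82 to 5.15 in chin and ventral competent telogen and 3.86 to 3.88 in dorsal competent telogen, but 2.32 to 2.69 in refractory telogen of the 3 domains. In ventral early anagen it was 1.94 to 2.26, while in chin and dorsal early anagen it was 4.65 to 5.35. The 5 melanocyte genes were at a mean of 1.99 to 2.08 in ventral early anagen and 1.46 to 2.28 in refractory telogen, and between 4.97 and 7.25 in all other skin groups. Thus the libraries labelled competent telogen had more of the dividing-cell genes than those labelled refractory telogen, and those labelled ventral early anagen had levels near those of refractory telogen. Skeletal muscle genes, 15 in all and each detected, had means of 8.63 to 9.41 in chin refractory telogen, 7.31 to 7.33 in dorsal refractory telogen and 5.21 to 5.28 in ventral refractory telogen. Their part in the differences below was not tested.

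**Figure D1:**
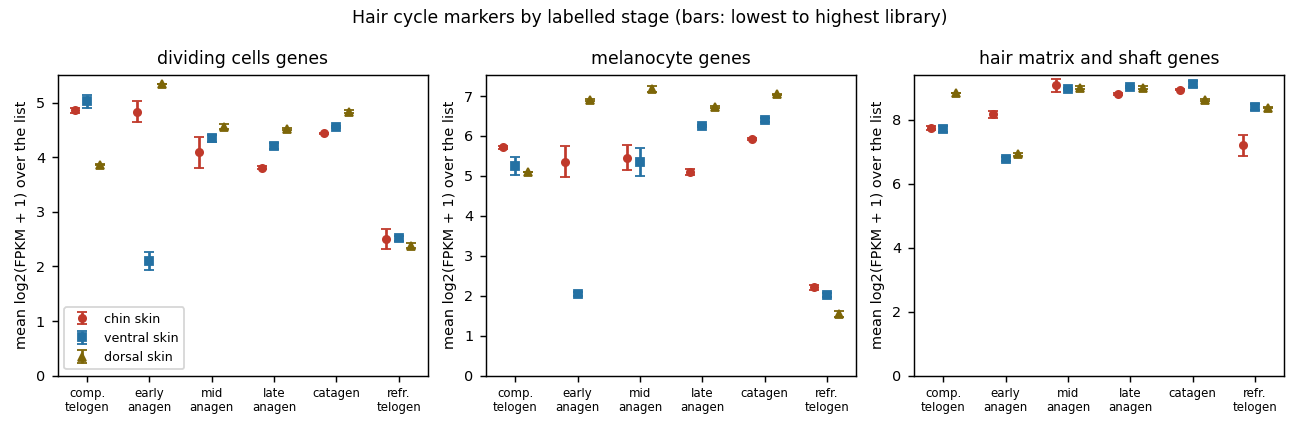
Mean log2(FPKM + 1) over the genes of dividing cells, of melanocytes and of hair matrix and shaft, 1 panel each, by labelled stage in chin, ventral and dorsal skin. Bars run from the lowest to the highest library of a group, and the symbol marks the middle of that range. The dividing-cell list is at 3.86 to 5.15 in the libraries labelled competent telogen and at 1.94 to 2.26 in those labelled ventral early anagen.

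The members spanned 3 orders of level. Sostdc1, Fstl1 and Fst had medians of 102, 75.1 and 18.8 FPKM over the 43 skin libraries. Grem1, Bmper and Chrdl1 had medians of 2.78, 2.12 and 1.52 FPKM, and Nog, Chrd and Chrdl2 of 0.65, 0.32 and 0.08 FPKM. Chrdl2 was listed at 0 in 14 of the 43 libraries and reached at most 0.52 FPKM, so it did not pass the filter of 0.5 FPKM in 2 libraries and was not tested in skin. Depth was 6797890 to 26353795 fragments per skin library, as estimated from the FPKM steps of single fragments, with a median of 13351280. At that depth the single transcript of Nog rested on a median of 13.0 fragments per library (2.03 to 43.8), that of Grem1 on 135 (56.1 to 511) and that of Sostdc1 on 2040 (753 to 6160). Small differences of Nog were thus not detectable.

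The course over the cycle differed among the domains for 7 of the 8 members tested and for 73.3% of all 21257 genes, so that it is not particular to the antagonists. This is the interaction of domain with stage, tested in limma with Benjamini-Hochberg adjustment over all genes. The adjusted p was 1.54e-13 for Fst, 4.01e-13 for Sostdc1, 7.22e-13 for Fstl1, 2.37e-08 for Chrdl1, 1.39e-07 for Grem1, 0.000248 for Chrd and 0.018 for Bmper, and 0.0789 for Nog. Nog passed with quantile normalization (0.0477) and without chin catagen replicate 1 (0.0453). Its libraries of ventral refractory telogen lay apart, from 0.63 to 1.98 FPKM. Without the chin late anagen and dorsal competent telogen libraries the same test gave 9.28e-05 for Sostdc1, 0.00148 for Grem1, 0.0316 for Bmper and 0.152 for Nog, and it passed for 7 members. No share over all genes is given for that fit, so that this count has no background beside it. Over the stages of one domain, 7 members differed in chin skin (background 66.2%), 8 in ventral skin (70.2%), Nog among them under some settings only, and 6 in dorsal skin (68.5%). The chin and dorsal tests include the libraries in doubt. Bmper did not pass in chin skin (adjusted p = 0.984), and Nog (0.31) and Bmper (0.112) did not pass in dorsal skin. In whole skin, fewer cells of a type and less RNA per cell cannot be told apart.

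**Figure D2:**
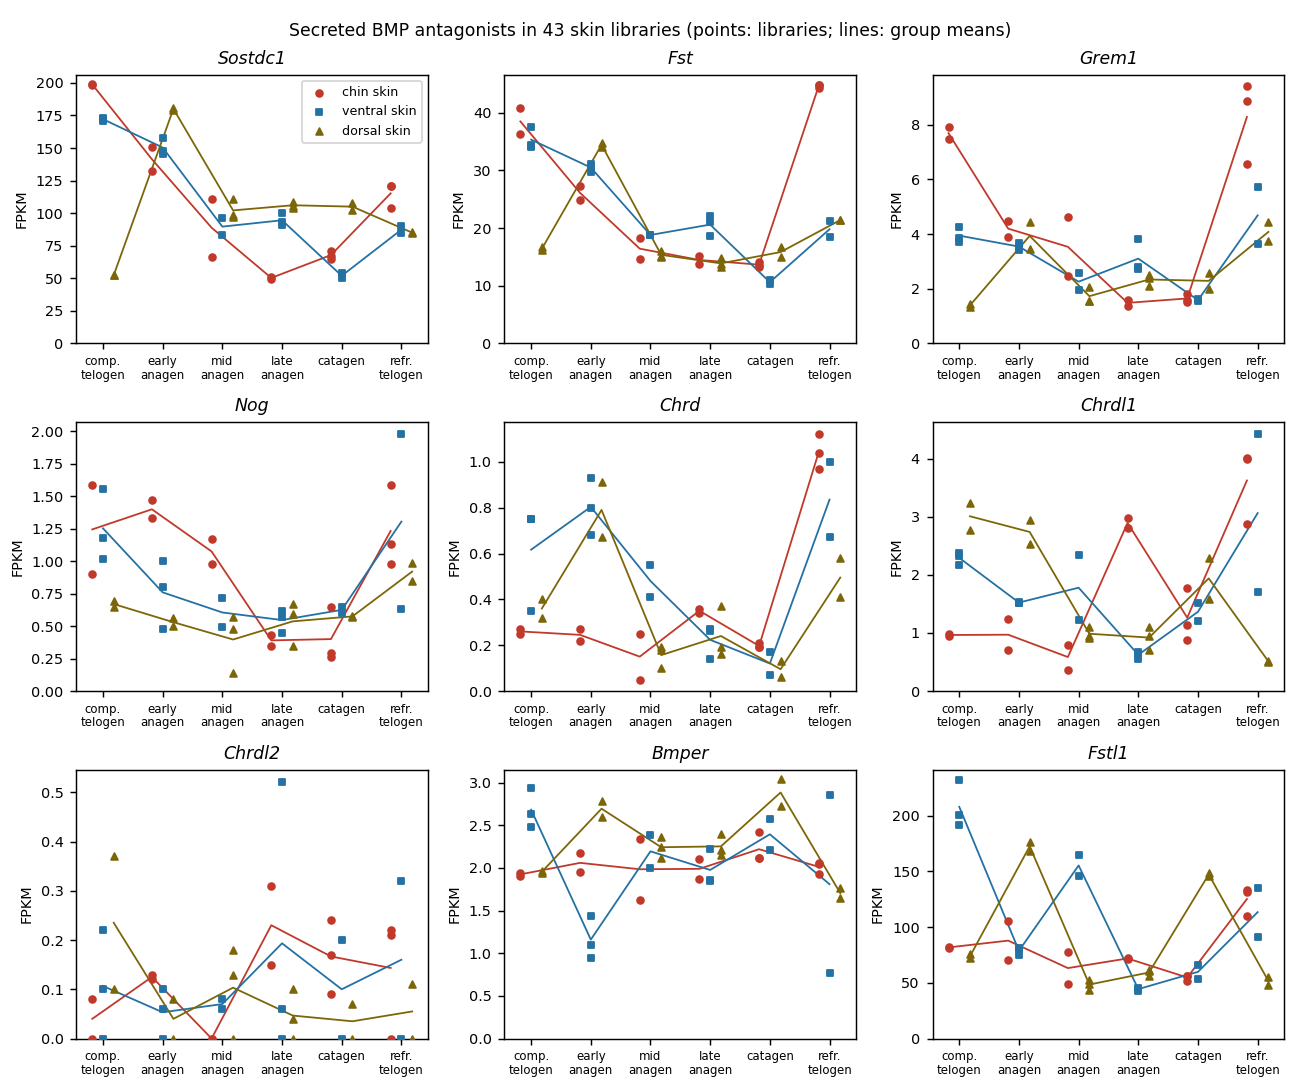
FPKM of each member in every skin library by labelled stage, 1 panel per gene with its own axis, points for libraries and lines through the group means of chin, ventral and dorsal skin. Fst and Grem1 are highest in chin refractory telogen (means 44.7 and 8.28 FPKM), Sostdc1 in chin competent telogen (199 FPKM) and Fstl1 in ventral competent telogen (208 FPKM).

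Nog, the classical BMP trap, was low at every stage of whole skin. It was at 1.47 and 1.33 FPKM in chin early anagen and at 1.13, 0.98 and 1.59 FPKM in chin refractory telogen, and at 0.65, 0.29 and 0.26 FPKM in chin catagen. In dorsal skin it was at 0.99 and 0.85 FPKM in refractory telogen and at 0.14 to 0.69 FPKM in the other stages. No 2 neighbours in the order of the 18 group means were separated by their libraries. Over the stages Nog differed in chin skin (adjusted p = 0.000447), where the late anagen libraries are in doubt, and in ventral skin (0.0217). The ventral call was lost with a pseudocount of 0.1 (0.0585), with median-of-ratios scaling (0.0532), with quantile normalization (0.0943) and without ventral competent telogen replicate 2 (0.078). The rise from catagen to refractory telogen in chin skin, 0.68 ± 0.17 (SE) on the log2(FPKM + 1) scale with an adjusted p of 0.00119, and the fall by 0.58 from mid to late anagen in chin skin (0.0445) were its only steps between neighbouring stages to pass. The latter rests on the chin late anagen libraries in doubt, and was lost with no filter on low values (0.0788), with the values of each library rescaled to one sum, as TPM (0.0836) and when any of the 4 libraries was left out (0.0752 to 0.187).

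Chrd, chordin itself, was higher in refractory telogen than in catagen in every domain. In chin skin it was at 0.19, 0.19 and 0.21 FPKM in catagen and at 1.12, 1.04 and 0.97 FPKM in refractory telogen. In ventral skin it was at 0.07 and 0.17 FPKM in catagen and at 1 and 0.67 FPKM in refractory telogen, and in dorsal skin at 0.06 and 0.13 FPKM against 0.58 and 0.41 FPKM. The libraries of the 2 stages did not overlap in any of the 3 domains. The rise was 0.77 ± 0.10 (SE, log2 scale, adjusted p = 1.79e-07) in chin skin, 0.71 ± 0.12 (3.93e-05) in ventral skin and 0.45 ± 0.12 (0.00325) in dorsal skin. Without dorsal refractory telogen replicate 1 the dorsal value had an adjusted p of 0.0577. In early anagen Chrd was at 0.93, 0.8 and 0.68 FPKM in ventral skin and 0.91 and 0.67 FPKM in dorsal skin, above the 0.27 and 0.22 FPKM of chin skin, and both differences from chin skin passed (0.53, adjusted p = 0.000377, and 0.52, 0.00197).

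Chrdl1, a chordin-like trap, took opposite courses in chin and dorsal skin at the end of the cycle. In chin skin it was at 1.78, 1.13 and 0.88 FPKM in catagen and at 4.01, 2.87 and 4 FPKM in refractory telogen. In dorsal skin it was at 1.59 and 2.29 FPKM in catagen and at 0.52 and 0.5 FPKM in refractory telogen, its lowest group of all 18. From catagen to refractory telogen it rose by 1.04 ± 0.18 (SE, log2 scale, adjusted p = 2.08e-05) in chin skin and fell by 0.95 in dorsal skin (SE 0.22, 0.000815). The ventral refractory telogen libraries were apart, at 4.43 and 1.7 FPKM, and the rise of 0.70 there (0.0157) became 0.19 without the first of them (0.554) and 0.60 without ventral catagen replicate 2 (0.11). In the 3 libraries of dorsal mid anagen Chrdl1 was at 0.94, 1.11 and 0.91 FPKM, after 2.94 and 2.54 FPKM in dorsal early anagen, a fall by 0.91 (0.000676). The 2.98 and 2.81 FPKM of chin late anagen were close to the 3.24 and 2.78 FPKM of dorsal competent telogen and above the 0.37 to 1.78 FPKM of chin early anagen, mid anagen and catagen, so the rise of 1.31 into chin late anagen and the fall by 0.80 after it rest on the libraries in doubt.

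Bmper, the chordin relative, was the most even of the 8 members. Its group means ranged 2.48-fold, from 1.16 ± 0.255 FPKM (SD, n = 3) in ventral early anagen to 2.88 ± 0.219 FPKM (SD, n = 2) in dorsal catagen, and only the lowest group was separated from its neighbour in the order. In ventral skin it was at 2.94, 2.63 and 2.48 FPKM in competent telogen, at 1.1, 0.94 and 1.44 FPKM in early anagen and at 2 and 2.39 FPKM in mid anagen. Both steps passed, with a fall by 0.77 (SE 0.15, adjusted p = 0.000121) and a rise of 0.57 (SE 0.17, 0.00734), which was lost without ventral mid anagen replicate 2 (0.093). Its interaction was lost without the competent telogen and early anagen libraries (0.802), with median-of-ratios scaling (0.148), and without ventral early anagen replicate 2 (0.0606).

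Grem1, gremlin, was highest in the groups of chin skin labelled telogen. It was at 7.9 and 7.48 FPKM in chin competent telogen and at 8.86, 6.56 and 9.43 FPKM in chin refractory telogen, and at 1.37 to 1.82 FPKM in the libraries of chin late anagen and catagen. These 5 libraries labelled telogen lay above all 38 others. Those of chin competent telogen among them had more of the dividing-cell genes than those of refractory telogen. Along the chin cycle it fell by 0.74 from competent telogen to early anagen (SE 0.18, adjusted p = 0.0248), a call that was lost with a pseudocount of 0.1 (0.0531) and when any of the 4 libraries was left out (0.0543 to 0.205). The fall by 0.83 from mid to late anagen (0.00152) rests on the chin late anagen libraries in doubt and was 0.48 in size without chin mid anagen replicate 2 (0.0854). From catagen to refractory telogen Grem1 rose by 1.80 ± 0.15 (SE, 5.7e-11). In ventral skin the last step was a rise of 1.11 ± 0.18 (2.12e-05), from 1.62 and 1.55 FPKM to 3.65 and 5.72 FPKM. In dorsal skin it was a rise of 0.63 ± 0.18 (0.00563), from 2.58 and 2 FPKM to 4.43 and 3.73 FPKM, which was lost without dorsal catagen replicate 2 (0.0812) or dorsal refractory telogen replicate 1 (0.0689). The lowest group mean was that of dorsal competent telogen, 1.4 ± 0.0919 FPKM (SD, n = 2), next to chin late anagen at 1.49 ± 0.163 FPKM (SD, n = 2). Both are groups in doubt.

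Sostdc1, also known as Wise or ectodin, had the highest FPKM of the members in 25 of the 43 skin libraries, and Fstl1 in the other 18. It was at 198.97 and 198.72 FPKM in chin competent telogen, at 173.26, 170.78 and 172.52 FPKM in ventral competent telogen and at 179.23 and 180.99 FPKM in dorsal early anagen. It was at 53.96 and 49.96 FPKM in ventral catagen. In the libraries in doubt it was at 49.64 and 51.01 FPKM in chin late anagen and at 52.48 and 52.3 FPKM in dorsal competent telogen. Its replicates lay close together in most groups, but in chin mid anagen they ran from 66.62 to 111.1 FPKM. The chin step from early to mid anagen given below uses that group. In the order of group means, 6 of the 17 neighbours were separated. In chin skin it fell by 0.71 from early to mid anagen (SE 0.13, adjusted p = 0.000238), where the median of all genes fell by 0.16 as deposited, and rose by 0.75 from catagen to refractory telogen (SE 0.10, 5.49e-07). In ventral skin it fell by 0.74 from early to mid anagen (5.77e-06) and by 0.85 from late anagen to catagen (1.34e-05), and rose by 0.74 into refractory telogen (3.91e-05). In dorsal skin it fell by 0.81 after early anagen (1.95e-06), stayed between 96.81 and 111.22 FPKM from mid anagen to catagen, and was at 85.55 and 84.58 FPKM in refractory telogen. Without the competent telogen and early anagen libraries its change over the dorsal stages did not pass (0.182).

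Fst, follistatin, had replicates that lay close together. In chin refractory telogen it was at 44.8, 44.88 and 44.32 FPKM, above every other library of the series. It was at 13.28, 13.66 and 14.04 FPKM in chin catagen, so that the rise between these stages was 1.64 ± 0.072 (SE, log2 scale, adjusted p = 4.46e-16), the smallest p of any member between neighbouring stages. In ventral skin it rose by 0.84 (SE 0.089, 2.27e-08), from 10.94 and 10.3 FPKM to 18.42 and 21.18 FPKM, and in dorsal skin by 0.41 (SE 0.089, 0.00032), from 16.68 and 15 FPKM to 21.4 and 21.38 FPKM. Between early and mid anagen it fell in all 3 domains, by 0.64 in chin skin (6.83e-06), 0.67 in ventral skin (1.05e-07) and 1.12 in dorsal skin (6.77e-12). In dorsal early anagen it was at 34.75 and 34.11 FPKM, and in dorsal mid anagen at 15.14, 14.99 and 15.94 FPKM. The fall by 0.21 between ventral competent telogen and early anagen (0.0225) turned to 0.03 with median-of-ratios scaling (0.87), and was lost without ventral competent telogen replicate 2 (0.118) or ventral early anagen replicate 1 (0.0736).

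Fstl1, the follistatin-like BMP4 binder, had high and low stages that differed in each domain. In ventral skin it was at 200.39, 231.87 and 191.57 FPKM in competent telogen, at 75.06 to 81.21 FPKM in early anagen, at 165.07 and 145.56 FPKM in mid anagen and at 42.81 to 45.79 FPKM in late anagen. The steps between them were a fall by 1.38 (SE 0.14, adjusted p = 4.39e-09), a rise of 0.97 (SE 0.16, 1.03e-05) and a fall by 1.78 (SE 0.16, 2.84e-09). In dorsal skin it was at 176.46 and 168.5 FPKM in early anagen, 43.87 to 52.39 FPKM in mid anagen, 145.95 and 148.44 FPKM in catagen and 55.08 and 48.22 FPKM in refractory telogen. There it fell by 1.81 (2.56e-10), rose by 1.30 from late anagen to catagen (1.04e-07) and fell by 1.50 (3.34e-08). In chin skin the largest change was a rise of 1.17 (5.21e-08) from catagen, 51.75 to 56.44 FPKM, to refractory telogen, 110.06 to 133.6 FPKM. The list of 7 dermal fibroblast genes, with a mean of 7.71 to 7.77 in ventral competent telogen, 7.54 in dorsal early anagen and 5.71 to 5.73 in dorsal refractory telogen, was high and low in some of the same groups, and its part in the levels of Fstl1 was not tested.

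Between neighbouring stages, 18 of the 40 member tests passed in chin skin, 20 in ventral skin and 19 in dorsal skin, where 20.2%, 29.7% and 33.5% of all gene tests passed. Along the chin cycle, 3 members passed from competent telogen to early anagen (2.14% of all genes did), 2 into mid anagen (18.1%), 4 into late anagen (19.7%), 2 into catagen (13.1%) and 7 into refractory telogen (48.0%). At the first of these steps the call of Sostdc1 was lost with TPM (adjusted p = 0.0699) and with median-of-ratios scaling (0.0734). It was also lost without the libraries in doubt (0.0502), and the call of Grem1 with a pseudocount of 0.1 (0.0531). The steps into and out of chin late anagen, with 6 of the 18 calls, rest on the libraries in doubt, and the other 3 steps had 12 calls in 24 tests. The counts were 3 (42.5%), 6 (42.4%), 2 (24.2%), 3 (5.93%) and 6 (33.6%) along the ventral cycle. They were 5 (43.4%), 6 (39.2%), 0 (2.68%), 2 (38.7%) and 6 (43.7%) along the dorsal cycle, where at the step with 0 in limma 1 member, Fstl1, was at an unadjusted p under 0.05. In chin and ventral skin more members rose from catagen to refractory telogen than at any other step. In chin skin 7 of 8 members rose and none fell (30.5% of all genes rose), in ventral skin 6 rose and none fell (14.9%), and in dorsal skin Grem1, Chrd and Fst rose (19.1%) while Fstl1, Chrdl1 and Bmper fell (24.5%). The median member difference at this step was 0.91 in chin skin, against 0.09 over all genes, and 0.72 in ventral skin, against −0.03. Bmper had a fall by 0.52 in dorsal skin (adjusted p = 0.0228) that was lost when any of 4 libraries was left out (0.05 to 0.121). From early to mid anagen 6 members fell in dorsal skin and none rose, with a median of −0.83 against −0.18 over all genes (30.1% of all genes fell). From dorsal competent telogen to early anagen 5 members rose, with a median of 0.71 against 0.25 over all genes (35.2% of all genes rose), a step that rests on the libraries in doubt. Sostdc1 rose there by 1.76 as deposited and by 1.33 with median-of-ratios scaling (1.01e-08), and Chrd no longer passed (0.115). 

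At one stage, the domains differed for 3 to 7 of the 8 members tested. In competent telogen 6 members differed (54.0% of all genes) and in early anagen 7 (51.6%). The counts were 6 for mid anagen (38.1%) and 5 for late anagen (20.8%), and catagen had 3 (42.9%) and refractory telogen 6 (42.2%). The count at late anagen includes the chin libraries in doubt and that at competent telogen the dorsal ones. Without both, 6 members passed at early anagen (Sostdc1 no longer did, 0.0633), 5 at mid anagen (Nog did not, 0.0533), 3 at catagen and 6 at refractory telogen. The shares over all genes given above are those of the fit with all libraries. Fst and Fstl1 were among those called at all 6 stages, but at mid anagen Fst was lost when only that stage was fitted (0.243) and when any of 4 libraries was left out (0.0519 to 0.11). Of 144 tests of a member between 2 domains at a stage, 58 passed, where 26.4% of all gene tests did. Of the 112 that use none of the libraries in doubt, 43 passed. In those pairs of domains 3.14% to 41.7% of all genes differed. A share pooled over those pairs is not given, so the 43 of 112 cannot be set against one.

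**Figure D3:**
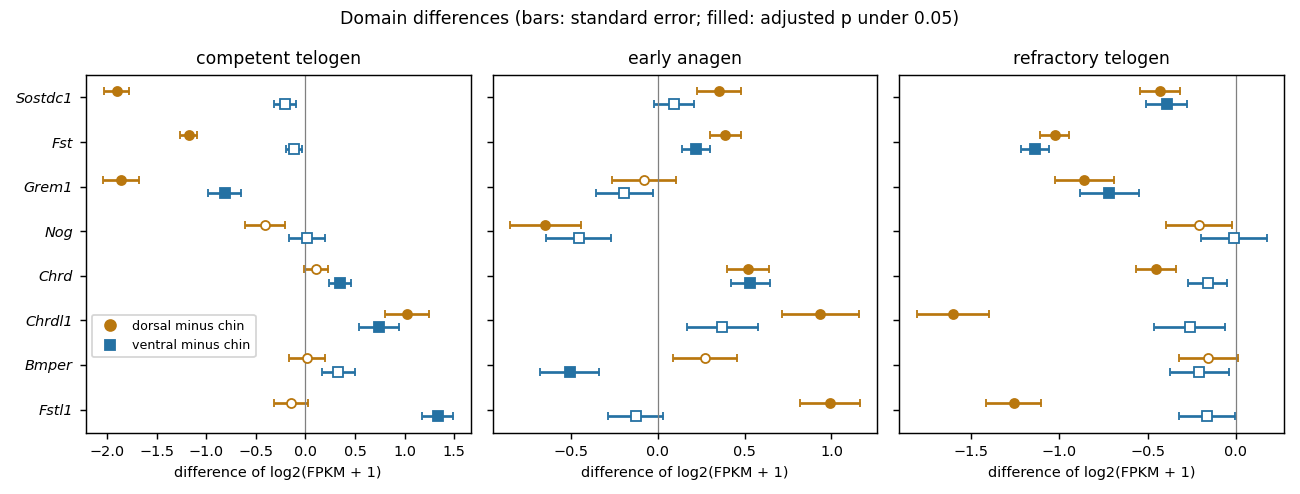
Difference in log2(FPKM + 1) of dorsal minus chin skin (circles) and ventral minus chin skin (squares) in competent telogen, early anagen and refractory telogen for the 8 members tested, with the standard error of the fit as bars and filled symbols where the adjusted p was under 0.05. Axes differ between panels. In refractory telogen all values lie below 0, with Chrdl1 at −1.61 and Fst at −1.03 for dorsal minus chin skin, and in early anagen Fstl1 is at 0.99. The median over all genes was also below 0 in refractory telogen, at −0.14 for dorsal and −0.17 for ventral minus chin skin. With median-of-ratios scaling Nog (0.11) and Fstl1 (0.09) lay above 0 for ventral minus chin skin, and Bmper (0.01) for dorsal minus chin skin.

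In refractory telogen, chin skin held more of 6 antagonists than dorsal skin and more of 3 than ventral skin. Dorsal skin was below chin skin for Chrdl1 (−1.61, SE 0.20, adjusted p = 3.34e-07), Fstl1 (−1.26, 2.59e-07), Fst (−1.03, 7.74e-11), Grem1 (−0.86, 0.000144), Chrd (−0.45, 0.00179) and Sostdc1 (−0.43, 0.00406). Here 34.8% of all genes differed, 27.2% were lower in dorsal skin, and the median over all genes was −0.14. With median-of-ratios scaling Sostdc1 did not pass (0.322), and the other 5 kept their direction and passed, at −1.46 for Chrdl1 and −0.35 for Chrd. Chrd was lost without dorsal refractory telogen replicate 2 (0.0547) and when only this stage was fitted (0.0716). Ventral skin was below chin skin (30.7% of all genes differed) for Fst (−1.14, 8.34e-12), Grem1 (−0.72, 0.00145) and Sostdc1 (−0.39, 0.0102, and 0.468 after scaling). The median over all genes was −0.17 there. Between dorsal and ventral skin (13.7%) the members called were Chrdl1 (−1.34, 7.38e-05, and 0.0905 when only this stage was fitted) and Fstl1 (−1.10, 3.45e-05). The ventral differences of Grem1 and Sostdc1 were lost without ventral refractory telogen replicate 1 (0.0725 and 0.0648) and when only this stage was fitted (0.079 and 0.0697), and that of Grem1 also with quantile normalization (0.101). When only the 7 libraries of this stage were fitted, 3 members in place of 6 differed among the domains. The share over all genes in that smaller fit is not given.

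In catagen the differences were of Fstl1, Sostdc1 and Fst. Fstl1 was at 145.95 and 148.44 FPKM in dorsal skin, 53.42 and 66.31 FPKM in ventral skin and 51.75 to 56.44 FPKM in chin skin. Dorsal skin was higher by 1.41 than chin skin (SE 0.16, adjusted p = 2.09e-08), where 41.3% of all genes differed, and by 1.29 than ventral skin (7.03e-07), where 35.4% did. Sostdc1 was higher in dorsal skin by 0.62 than in chin skin (6.08e-05) and by 1.00 than in ventral skin (2.93e-07). Fst was lower in ventral than in chin skin (−0.34, 0.0105, with 5.19% of all genes), but not without ventral catagen replicate 2 (0.126), and its excess of 0.20 in dorsal over chin skin (0.0498) was lost without the libraries in doubt (0.0569).

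In competent telogen, dorsal skin had less Sostdc1 (−1.90, SE 0.13, adjusted p = 1.35e-12), Grem1 (−1.86, SE 0.18, 4.06e-09) and Fst (−1.18, 1.89e-11) than chin skin, and more Chrdl1 (1.03, 0.000567), with 36.7% of all genes. Against ventral skin (47.9%) it had less Sostdc1 (−1.70, 1.5e-12), Fstl1 (−1.48, 9.71e-09), Fst (−1.06, 1.71e-11) and Grem1 (−1.04, 6.97e-06). These differences compare the dorsal libraries in doubt, in which the median over all genes was −0.19 against chin skin and −0.25 against ventral skin. Ventral and chin skin can be compared at this stage without them. Ventral skin had more Fstl1 (1.33, 4.08e-07), Chrdl1 (0.74, 0.00787) and Chrd (0.35, 0.0218) and less Grem1 (−0.81, 0.000615), and 23.0% of all genes differed. The call of Chrd was lost under 8 alternatives (0.0507 to 0.171), among them a pseudocount of 0.1, median-of-ratios scaling, quantile normalization and leaving out any of 4 libraries. That of Chrdl1 was lost when either chin library was left out (0.0524 and 0.0591). In early anagen Fstl1 was higher in dorsal skin by 0.99 than in chin skin (8.33e-05, with 27.0% of all genes) and by 1.12 than in ventral skin (1.25e-06, 41.7%). Nog was lower there in dorsal than in chin skin (−0.65, 0.018), and Bmper was lower in ventral than in chin skin (−0.51, 0.0208, 32.9%). Nog was lost when any of 3 libraries was left out (0.0666 to 0.109), and Bmper when any of 4 was (0.0508 to 0.142). In mid anagen Fstl1 stood out in ventral skin, higher by 1.32 than in chin skin (2.99e-06, 22.1%) and with −1.66 for dorsal against ventral skin (4.82e-09, 28.3%). Dorsal skin had less Grem1 (−0.70, 0.00405) and Nog (−0.58, 0.0293) than chin skin at that stage (17.2%). Without chin mid anagen replicate 2 the difference of Grem1 was −0.35 (0.238), and when only that stage was fitted it was lost (0.127). Nog was lost with TPM (0.0664), when only that stage was fitted (0.125) and when any of 3 libraries was left out (0.073 to 0.142). In late anagen the difference that does not rest on the chin libraries was that of Fst, lower in dorsal than in ventral skin (−0.54, 2.09e-05), the only member among the 3.14% of genes that differed there. Against the chin libraries in doubt, Sostdc1 was higher by 0.90 in ventral skin (2.2e-06, 15.6%) and by 1.06 in dorsal skin (8.02e-08, 19.5%).

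Refractory and competent telogen were compared because the phases of telogen differ in whether a follicle can answer growth signals. The groups are those of the labels, and in all 3 domains the libraries labelled competent telogen had more of the dividing-cell and melanocyte genes. In chin skin only 2.14% of all genes differed between competent telogen and early anagen. The antagonists did not move one way between the groups labelled as the 2 telogens. In chin skin 5 of 8 members differed (36.3% of all genes): Chrdl1 was higher in refractory telogen by 1.23 (SE 0.20, adjusted p = 1.75e-05), Chrd by 0.70 (SE 0.11, 9.56e-06), Fstl1 by 0.60 (SE 0.16, 0.00295) and Fst by 0.21 (SE 0.081, 0.0402), and Sostdc1 was lower (−0.79, SE 0.12, 2.95e-06). The call of Fst was lost when chin competent telogen replicate 2 or any of the 3 refractory telogen libraries was left out (0.0664 to 0.377). In ventral skin Sostdc1 (−0.97, 8.44e-08), Fstl1 (−0.89, 3.26e-05), Fst (−0.81, 3.98e-09) and Bmper (−0.49, 0.0185) were lower, 42.6% of all genes differed, and the median over all genes was −0.22. With median-of-ratios scaling these values were −0.55, −0.47, −0.40 and −0.23 (0.273 for Bmper), and Chrd (0.35, 0.00839), Chrdl1 (0.50, 0.0402) and Grem1 (0.52, 0.0232) passed as higher. Without ventral refractory telogen replicate 2, which had 0.77 FPKM of Bmper against 2.85 FPKM in the other library, the difference of Bmper was 0.07 (0.758). Chrdl1 then passed as higher by 0.72 (0.0074).

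In dorsal skin 5 members differed between the 2 telogens (22.2% of all genes). Grem1 (1.08, SE 0.18, adjusted p = 5.4e-05), Sostdc1 (0.69, 0.000159) and Fst (0.36, 0.00301) were higher in refractory telogen, and Chrdl1 (−1.41, SE 0.22, 2.38e-05) and Fstl1 (−0.51, 0.0313) were lower. The call of Fstl1 was lost when any of the 4 libraries was left out (0.0566 to 0.216). All 5 values rest on the dorsal competent telogen libraries, without which the comparison cannot be made. Chrdl1 and Fstl1 were thus higher in chin and lower in dorsal refractory telogen, and Sostdc1 the reverse. Whether the difference between the telogens itself differed between chin and dorsal skin was not tested.

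**Figure D4:**
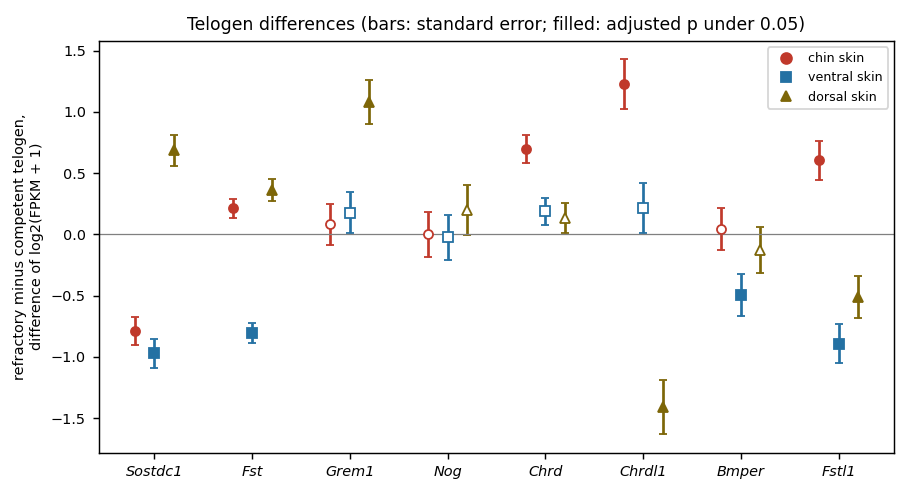
Difference in log2(FPKM + 1) of each member tested between refractory and competent telogen in chin, ventral and dorsal skin, with the standard error of the fit as bars and filled points where the adjusted p was under 0.05. Chrdl1 is 1.23 higher in chin skin and 1.41 lower in dorsal skin, where the competent telogen libraries are those in doubt.

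In the ear, the cartilage/muscle complex beneath the skin held the highest levels of the noggin and chordin members in the series. Nog was at 23.52, 24.23 and 23.21 FPKM in the 3 libraries of the complex, at 2.51 and 1.66 FPKM in ear skin and at 0.69 and 0.65 FPKM in dorsal competent telogen. Bmper was at 13.16, 14.52 and 13.08 FPKM against 2.28 and 2.09 FPKM in ear skin, and Chrdl1 at 8.56, 8.85 and 9.36 FPKM against 1.77 and 2.07 FPKM. The libraries of the complex did not overlap with those of ear skin for any of these 3 genes. Chrd was at 4.49, 4.59 and 4.35 FPKM in the complex and at 1.51 and 1.2 FPKM in ear skin. Chrdl2, nearly silent in the skin of the body, was at 4.27, 4.28 and 2.97 FPKM in the complex and was listed at 0 in both ear skin libraries. Against ear skin the complex was higher for Nog by 3.01 (SE 0.12, adjusted p = 3.68e-06), Grem1 by 2.77 (2e-06), Chrdl2 by 2.26 (5.32e-05), Bmper by 2.19 (2.17e-06), Chrdl1 by 1.77 (1.14e-05) and Chrd by 1.22 (6.35e-05), among 28.0% of all genes that were higher.

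Sostdc1 was the opposite. It was at 71.29 and 81.47 FPKM in ear skin and at 1.48, 1.41 and 1.77 FPKM in the complex, a difference of −4.92 (adjusted p = 1.32e-07). Fst (−0.51, 0.000522) and Fstl1 (−0.71, 0.000126) were also lower in the complex, so that all 9 members differed, in a background of 66.5% of all genes. Fstl1 was at 228.76 and 213.56 FPKM in ear skin and at 127.85, 135.37 and 140.95 FPKM in the complex. Against dorsal skin, here the competent telogen libraries in doubt, all 9 members differed too (71.1%). Nog was higher in the complex by 3.88 (SE 0.12, 1.16e-06), Sostdc1 lower (−4.39, 1.76e-07), and Fstl1 higher by 0.86 (4.6e-05). With the dorsal refractory telogen libraries in place of the competent telogen ones, all 9 passed in the same direction, where 68.5% of all genes differed. The values were 3.68 for Nog, 2.72 for Chrdl1, 0.89 for Grem1 and −5.08 for Sostdc1. In the complex 10 of 10 cartilage genes were at 1 FPKM or more and summed to 1670 to 2080 FPKM, against 3.71 to 4.04 FPKM in ear skin, where Matn1 was listed at 0. The 15 skeletal muscle genes summed to 25200 to 29000 FPKM in the complex and 1640 to 1660 FPKM in ear skin, and of 16 hair matrix and shaft genes 12 were listed at 0 in the complex. Cartilage and muscle were sequenced together, so that their shares of a member's level cannot be told apart.

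**Figure D5:**
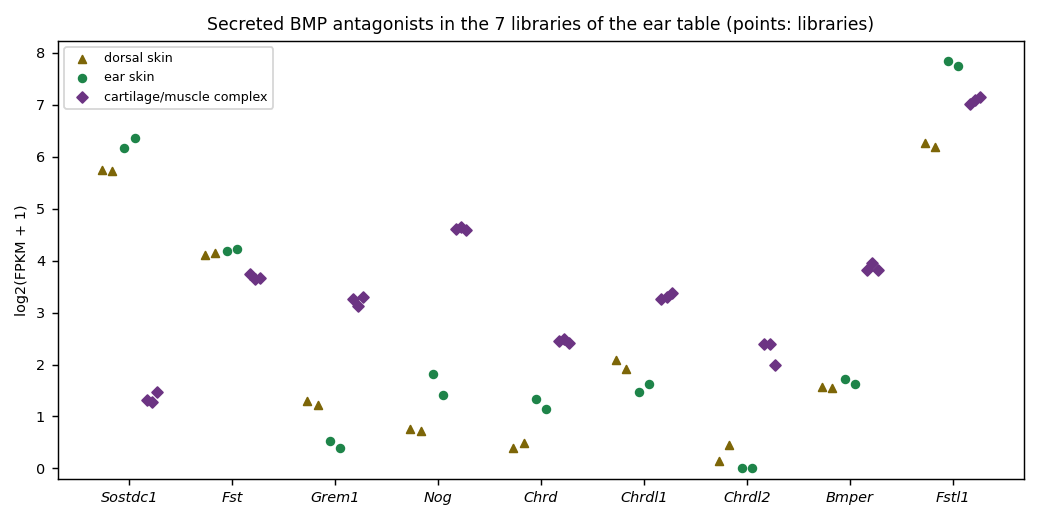
Level of the 9 members as log2(FPKM + 1) in each library (points) of dorsal competent telogen skin, telogen ear skin and the complex of ear cartilage and muscle. The dorsal libraries are those in doubt. Nog is at 23.21 to 24.23 FPKM in the complex and at most 2.51 FPKM in the other tissues, and Sostdc1 is at 1.41 to 1.77 FPKM in the complex and at least 52.3 FPKM in the others.

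Telogen ear skin differed from dorsal competent telogen skin for 6 of the 9 members (59.3% of all genes), with the median of all genes higher in ear skin by 0.33. The dorsal libraries here are those in doubt. Fstl1 (1.57, adjusted p = 1.21e-05), Nog (0.87, 0.00209), Chrd (0.79, 0.000998) and Sostdc1 (0.53, 0.00451) were higher, and Grem1 (−0.80, 0.0012) and Chrdl1 (−0.46, 0.00945) lower. Chrdl1 was lost with TPM (0.0565) and without ear skin replicate 1 (0.0505) or dorsal competent telogen replicate 1 (0.0582). Grem1 was at 0.45 and 0.31 FPKM in ear skin, below all 43 skin libraries. Chrdl1 was higher in ear skin by 0.95 (0.000356) when the dorsal refractory telogen libraries took the dorsal place, and Sostdc1 was then at −0.16 (0.23). With median-of-ratios scaling Sostdc1 did not pass (0.05, 0.752), Fst was lower in ear skin (−0.39, 0.00508), and Fstl1, Nog, Chrd, Grem1 and Chrdl1 passed in the same direction. Fstl1, Nog, Chrd and Grem1 kept both direction and call against the refractory telogen libraries, with 2.08, 0.67, 0.65 and −1.88, where 57.5% of all genes differed. The 7 dermal fibroblast genes had a mean of 8.42 to 8.44 in ear skin and of 5.99 to 6 in dorsal competent telogen, and their part in these differences was not tested.

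The genes around the antagonists in the BMP pathway were taken from lists fixed by function. Among BMP response genes, Id1 and Id3, direct targets of the signal, were highest where Nog was highest. Id1 was at 883.74 to 1044.55 FPKM in the complex, 115.73 and 132.19 FPKM in ear skin and 103.05 and 106.24 FPKM in dorsal skin, and Id3 was at 790.12 to 915.25, 121.5 to 130.28 and 146.17 to 156.87 FPKM. Against ear skin 6 of the 7 response genes were higher in the complex and 1, Id2, lower, with a median of 2.72. Over all genes 66.5% differed here and 28.0% were higher, which is the background of this and the next counts. Of the 10 BMP ligands tested, 6 were higher (Bmp2, Bmp5, Bmp6, Bmp15, Gdf5 and Gdf6) and 4 lower, among them Bmp7 (−3.11, adjusted p = 1.06e-06). Of 11 receptors and co-receptors 6 were higher and 3 lower. Of 13 other secreted modulators tested 6 were higher and 4 lower, with Nbl1, a relative of gremlin, at 177.49 to 234.99 FPKM against 109.23 and 128.39 FPKM (0.74, 0.00299) and Fstl3 lower (−2.76, 1e-05). The chordin-cutting proteases Bmp1 (−1.07, 0.00168) and Tll1 (−0.58, 0.00154) were lower. Lrp4, a co-receptor that binds Sostdc1, was lower in the complex than in ear skin (−3.61, 3.38e-07), as Sostdc1 was. Among the 5 activins and related ligands that follistatin binds, 4 were higher and 1 lower.

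Between the 2 telogens the pathway lists were split by domain, where 36.3% of all genes differed in chin skin, 42.6% in ventral skin and 22.2% in dorsal skin. The dorsal values rest on the competent telogen libraries in doubt. In chin skin 4 of the 7 response genes were lower in refractory telogen and none higher, with Id3 at −0.88 (SE 0.18, adjusted p = 0.00021) and a list median of −0.46. In ventral skin 2 were lower (Id2, −0.80, 2.32e-06, and Id3, −0.75, 0.00101) and 1 higher, and in dorsal skin 1, Id4, was higher (0.66, 0.0253). Of the 7 ligands tested, Bmp8a was lower in chin skin (−1.34, 1e-08), Bmp7 was higher in ventral skin by 0.51 (4.97e-07), where Bmp3 was lower, and Bmp4 (0.70, 0.000292) and Bmp7 (0.40, 0.000183) were higher in dorsal skin. Of the other modulators Nbl1 was higher in refractory telogen by 1.60 in chin skin (2.12e-11) and by 0.77 in dorsal skin (0.000103), and at −0.17 in ventral skin (0.292). Among 12 modulators tested 3 were higher and 1 lower in chin skin, 3 lower in ventral skin, and 3 higher and 1 lower in dorsal skin. Lrp4 was higher by 0.72 in chin skin (9.54e-06) and by 0.77 in dorsal skin (3.14e-05) and lower in ventral skin (−1.21, 1.22e-09). Mstn, a muscle ligand bound by follistatin, was higher by 3.90 in chin skin (5.79e-15), where the 15 skeletal muscle genes summed to 16200 to 25700 FPKM in refractory telogen and 730 to 777 FPKM in competent telogen. The interaction of domain and stage passed for 10 of the 12 modulators, 5 of the 7 ligands, 10 of the 11 receptors and co-receptors, 6 of the 7 response genes, 2 of the 2 proteases tested, all 5 activins and related ligands and 2 of the 3 LRP co-receptors, beside the 73.3% of all genes.

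Among the members, the group means over the 18 skin groups followed each other most for Grem1 and Fst (Pearson's r = 0.858), Fst and Sostdc1 (0.801) and Nog and Grem1 (0.788), with Chrdl1 and Fstl1 at 0.653. Of 17614 genes with a group mean of at least 1 FPKM, those most like Fst were Fut8 (0.962), Tgfbi (0.947) and Mef2a (0.945), and those most like Sostdc1 were Il1rap (0.961), Adh6a (0.956) and Skint9 (0.95). Fstl1 was most like Man1a (0.95), Ikbip (0.941) and Shox2 (0.934), Chrd like Tns2 (0.951), Gamt (0.943) and Axl (0.936), and Chrdl1 like C2 (0.949), Ccl6 (0.946) and C1ra (0.946). Grem1 was most like Fam134b (0.929), Kctd12 (0.925) and Gm3527 (0.925), Bmper like Wdr83 (0.901), Pkp2 (0.887) and 1700066M21Rik (0.882), and Nog like Pcbd1 (0.871), Man1a2 (0.841) and Prr7 (0.837). All these values are descriptions over the same 18 groups, which share their libraries. The groups include the 4 libraries in doubt and others whose stage markers stood apart from their labels.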

How the data were processed

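Per the labels and the methods of the study, RNA (RIN above 8) was made into SMART-seq2 libraries and sequenced as paired ends. The authors deposited FPKM values with 2 decimals, estimated with RSEM 1.2.25 on mm10 and GENCODE vM8 after alignment. They state a batch correction without naming the batches or the method, which can shrink or shift differences between groups. Whether the deposited values carry that correction was not tested. These values keep the steps of single fragments used for the depth estimate, and differences between batches may remain in them. No count test was run, because no counts were at hand. Replicate, domain and stage came from the labels.

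Tests used log2(FPKM + 1), where the pseudocount of 1 makes fold changes understate those of low genes. A gene entered the test if 2 or more libraries had 0.5 FPKM or more. The fit was made with limma 3.58.1 in R 4.3.3, with the variance as a trend of the level and Benjamini-Hochberg adjustment over all genes at 0.05. These were 21257 genes in 43 skin libraries fitted as 18 groups, and 19299 genes in the 7 libraries of the ear table. The dorsal columns of both tables held identical values. No batch correction was applied here. Depth was estimated from the steps between low FPKM values among single-transcript genes, at 6797890 to 26353795 fragments in the skin table and 6976953 to 29536072 in the 5 other ear libraries. The fits were tested on simulated data.

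The members, the pathway and marker lists and the comparisons were chosen with earlier results of these data known. The named genes were all members, the 4 most abundant genes of each pathway list and, for each member, the 3 genes with the most similar group means. Others, such as Hoxb7, Tll1 and the genes named to spell out a count, were chosen after their values were seen. The alternatives were a pseudocount of 0.1, no filter or a minimum of 1 FPKM, TPM, median-of-ratios or quantile scaling, no variance trend, a replicate block, fits on 1 stage, ventral catagen replicate 1 left out, dorsal refractory telogen as the dorsal skin of the ear comparison, and each library left out. Leaving out the competent telogen and early anagen libraries, or those of chin late anagen and dorsal competent telogen, was added after the data were seen. Descriptions and figures used Python 3.11.15, numpy 2.4.6, pandas 2.3.3 and matplotlib 3.10.9. Promoters came from RefSeq on GRCm38.p6 and gene positions from GENCODE vM21 on GRCm38. Microarray data of the study were not analysed here.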

Additional observations from a re-analysis of the deposited data

Results flagged for a closer look

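The 7 members below are listed here because their course over the stages differed among the 3 domains, by the interaction of domain with stage (limma with Benjamini-Hochberg adjustment over all genes, 73.3% of which passed). The adjusted p was 1.54e-13 for Fst, 4.01e-13 for Sostdc1, 7.22e-13 for Fstl1, 2.37e-08 for Chrdl1, 1.39e-07 for Grem1, 0.000248 for Chrd and 0.018 for Bmper. Without the chin late anagen and dorsal competent telogen libraries it was 5.39e-11 for Fst, 2.02e-11 for Fstl1, 9.28e-05 for Sostdc1, 1.75e-06 for Chrdl1, 0.00148 for Grem1, 0.000412 for Chrd and 0.0316 for Bmper. Without the competent telogen and early anagen libraries it was 0.802 for Bmper and at most 0.0257 for the other 6. No group had more than 3 libraries, so that no library was tested as an outlier within its group.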

How the results depend on the processing

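The domain differences at mid anagen passed for 6 members but for 1 when only the libraries of that stage were fitted and for 3 without the competent telogen and early anagen libraries, and those at refractory telogen for 6 but for 3 when only that stage was fitted. These alternatives have fewer libraries to estimate the spread, and their shares over all genes are not given. All other counts stayed within 1.5 times their value. With each library left out in turn, the counts were 6 to 8 for the interaction, 7 to 7, 7 to 8 and 6 to 6 for the stages of chin, ventral and dorsal skin, 5 to 6, 5 to 7, 4 to 6, 4 to 5, 3 to 3 and 5 to 8 for the domains from competent telogen to refractory telogen, 15 to 20, 17 to 24 and 16 to 19 for neighbouring stages in chin, ventral and dorsal skin, 4 to 5, 3 to 4 and 4 to 4 for the 2 telogens, 53 to 70 for pairs of domains, and 5 to 6, 9 to 9 and 9 to 9 for ear skin against dorsal skin, the complex against dorsal skin and the complex against ear skin. Directions that reversed were those of Fst from ventral competent telogen to early anagen (0.0256 with median-of-ratios scaling, 0.0738 with quantile normalization), Bmper between the ventral telogens (0.0658 without ventral refractory telogen replicate 2, and −1.06 without replicate 1), Bmper between ear and dorsal skin (−0.291 with quantile normalization), Fst between ear and dorsal skin (−0.391 with median-of-ratios scaling, −0.272 with quantile normalization, −0.287 with dorsal refractory telogen) and, with dorsal refractory telogen, Chrdl1 (0.95) and Sostdc1 (−0.157) between ear and dorsal skin. For these the cause was not tested. Replicate numbers did not pair the libraries: over 327 pairs with the same number the median correlation of deviations was 0.003 (−0.174 to 0.162), against −0.00278 over 544 pairs with different numbers, and 16 of 43 libraries correlated best with one of their own number. With a replicate block the interaction passed for 7 members, and the block took 1 call from the chin telogens, leaving 4 (Fst, adjusted p = 0.0502 in limma). The ear skin columns carry no number, and without them the block left 9 members between the complex and dorsal skin. The low counts behind Nog, Chrd and Chrdl2 limit what can be seen of them in skin.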
